A study of Mus musculus with 18 samples.

Results

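Potassium channel subunit mRNAs were read from probe sets that map to 1 gene whose symbol is Kcn followed by 1 to 3 letters and a number. There were 132 such probe sets for 73 genes, among 28898 probe sets with 1 gene on the array. Each gene was represented by its brightest probe set, the one with the highest mean over the 18 arrays. A filter on low values (mean log2 above 5.95, the 40th percentile of all probe sets) kept 59 of the 73 genes, among 11974 genes kept in all. By symbol these were 24 of 28 voltage-gated subunits, 11 of 15 inward rectifiers, 8 of 9 two-pore subunits, 7 of 7 calcium-activated and related Slo subunits, and 9 of 14 auxiliary subunits. The 14 genes below the filter (Kcna5, Kcne1, Kcne3, Kcne4, Kcnh5, Kcnh8, Kcnj15, Kcnj2, Kcnj5, Kcnj8, Kcnk5, Kcnmb1, Kcnmb2 and Kcnv2) had mean log2 values between 4.30 and 5.93 and were not tested. The kept genes nearest the limit were Kcnq1 (5.99), Kcnk6 (6.06) and Kcne2 (6.08), and the nearest ones left out were Kcna5 (5.93), Kcnj2 (5.68) and Kcne4 (5.66).

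RNA came from cortex and striatum, dissected together, of 3 TgCPEB4∆4 mice and 3 control mice (CTRL), all aged 6 weeks. TgCPEB4∆4 is a transgene for a form of CPEB4, an RNA-binding protein that acts on poly(A) tails. Its promoter, the cells that express it and the strain and sex of the mice are details that the labels do not give. Each mouse gave 3 arrays, 1 of total RNA (INPUT) and 1 for each step of release from poly(U)-agarose: WASH, released at 25% formamide and enriched for short poly(A) tails, and ELUTED, released at 90% formamide and enriched for long tails. The difference log2 ELUTED minus log2 WASH within a mouse is called the tail ratio, so a positive value means a larger share of the ELUTED than of the WASH fraction. The mass of cDNA labelled was the same for all arrays, and values are therefore shares within a fraction and not amounts of RNA, and levels of different probe sets cannot be set against each other.

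Potassium channels are membrane proteins that let potassium leave the cell, which sets the resting potential and ends action potentials. Voltage-gated (Kv) subunits open on depolarisation, calcium-activated ones follow calcium entry, and inward rectifiers and two-pore subunits carry resting current. Auxiliary subunits form no pore and alter the trafficking or gating of the channels they join, and poly(A) tail length of an mRNA is linked to its stability and translation.

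The tissue label was checked on INPUT arrays: all 5 neuronal markers (Rbfox3, Snap25, Syt1, Slc17a7 and Gad1) and 3 of 4 measured striatal markers were above background on all arrays of both genotypes. Background on an array was its highest nonspecific control probe set, a log2 value of 7.07 to 7.52 on INPUT, 5.43 to 6.03 on WASH and 5.53 to 7.30 on ELUTED arrays. In interferon and acute-phase genes and in astrocyte markers, TgCPEB4∆4 mouse 1 lay furthest from the control mice and TgCPEB4∆4 mouse 2 next. The mean of 5 interferon and acute-phase genes was 10.08, 7.21 and 6.21 in INPUT of TgCPEB4∆4 mice 1, 2 and 3, and 6.13, 6.03 and 6.19 in control mice. The mean of 5 astrocyte markers was 11.65, 11.28 and 10.73 in TgCPEB4∆4 mice and 10.68, 10.61 and 10.63 in control mice. By genotype mean 4 of these 5 markers were higher in TgCPEB4∆4 mice. Slc1a2 was not, at 12.65, 12.69 and 12.67 in TgCPEB4∆4 mice and 12.71, 12.75 and 12.70 in control mice. Tail ratios also differed in spread between mice: over all probe sets their SD was 0.61, 0.62 and 0.39 in TgCPEB4∆4 mice 1, 2 and 3, and 1.19, 0.59 and 0.86 in control mice. Over the 59 subunits it was 0.54, 0.51 and 0.28 in TgCPEB4∆4 mice and 0.99, 0.49 and 0.66 in control mice, and control mouse 1 had the largest absolute ratio of its group for 38 of the 59. The brightest Cpeb4 probe set read 8.58, 8.55 and 7.99 in INPUT of TgCPEB4∆4 mice and 8.44, 8.36 and 8.30 in control mice, which overlap; it is unknown here whether it reads the transgene, so it is no check of the genotype labels. On the ELUTED array of control mouse 1, which had the highest background of the 12 fraction arrays, 14 of 59 subunits were not above background, and so had only a bound there for their tail ratio. These were Kcnab3, Kcnc2, Kcne2, Kcnf1, Kcng4, Kcnj1, Kcnj13, Kcnj14, Kcnk6, Kcnk7, Kcnk10, Kcnq1, Kcns1 and Kcnu1, and 7 of them were not above it in ELUTED of TgCPEB4∆4 mouse 2 either (Kcne2, Kcng4, Kcnj13, Kcnj14, Kcnk6, Kcnq1 and Kcnu1). Some of the 14 were not above background on further fraction arrays. These were Kcne2, Kcnj14 and Kcnk6 in WASH of control mouse 3, Kcnj13 and Kcnk6 in its ELUTED, and Kcnq1 in WASH of TgCPEB4∆4 mouse 3. No other subunit was at or below background on a fraction array. In INPUT 36 of 59 subunits were above background on all 3 TgCPEB4∆4 arrays and 40 on all 3 control arrays, and 34 were above it on all 18 arrays of the series.

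Potassium channel subunit mRNAs fell on both sides of the fractionation, with class medians of the tail ratio between -0.55 and 0.65 in control mice. In TgCPEB4∆4 mice the tail ratio of 5 of 59 subunits passed above 0 and that of 9 below 0, against 22 above and 16 below in control mice (limma, adjusted p under 0.05 over 27022 probe sets). Among all 11974 genes 6.5% were called positive and 20.5% negative in TgCPEB4∆4 mice, and 20.5% positive and 39.9% negative in control mice. All 6 mice shared 1 spread in this fit, and the counts depended on it. With the 3 mice of each genotype fitted alone, 10 subunits were positive and 14 negative in TgCPEB4∆4 mice, and 15 and 13 in control mice. Among all genes the shares were then 13.0% and 36.7% in TgCPEB4∆4 mice, and 11.1% and 30.8% in control mice. The median tail ratio of the subunits was -0.07 in TgCPEB4∆4 mice, against -0.17 over all genes, and 0.16 in control mice, against -0.18 over all genes. This offset of all genes depended on scaling: after a second quantile normalization the medians over all genes were -0.02 in TgCPEB4∆4 mice and -0.002 in control mice, and the subunits' medians were 0.10 in TgCPEB4∆4 and 0.23 in control mice. Under that scaling 6 subunits were positive and 3 negative in TgCPEB4∆4 mice, and 25 positive and 10 negative in control mice; with arrays centred on their medians the counts were 4 and 12 in TgCPEB4∆4 mice and 16 and 19 in control mice. Among all genes 5.54% were positive and 8.13% negative in TgCPEB4∆4 mice, and 24.7% and 29.9% in control mice, after the second quantile normalization. With centred arrays the shares were 4.33% and 26.8% in TgCPEB4∆4 mice and 13.5% and 45.5% in control mice. Without the filter the subunits' medians were 0.016 in TgCPEB4∆4 mice and 0.18 in control mice, against -0.025 and 0.054 over all genes. The distance of the subunits from all genes was then 0.041 in TgCPEB4∆4 mice and 0.127 in control mice, against 0.102 and 0.347 with the filter. Without TgCPEB4∆4 mouse 1 or without TgCPEB4∆4 mouse 2, none of the 59 subunits was called in TgCPEB4∆4 mice, and likewise 0 of all 11974 genes. Without control mouse 1 the counts in control mice were 17 positive and 15 negative, and the median of the subunits was -0.02, against 13.2% positive, 34.8% negative and a median of -0.15 over all genes. In control mice 12 positive and 9 negative calls held under every alternative in which the gene was tested. Kcna2, Kcna7, Kcnc1, Kcnh7, Kcnip3, Kcnj1, Kcnj6, Kcnma1, Kcnn3, Kcnn4, Kcnq3 and Kcnt1 were positive. Kcnab3, Kcnc2, Kcnf1, Kcng4, Kcnk1, Kcnk2, Kcnmb4, Kcns2 and Kcnv1 were negative. Kcnj1, Kcnn4 and Kcng4 were tested under 13 alternatives and the others under 14. The share of all genes with calls that held in this way was not counted. Among the listed subunits, Kcnj1, Kcnab3, Kcnc2, Kcnf1 and Kcng4 were not above background in ELUTED of control mouse 1, and their calls held without that mouse. For Kcnj1 the ratio there was an upper bound, which does not fix a positive sign.

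**Figure D1:**
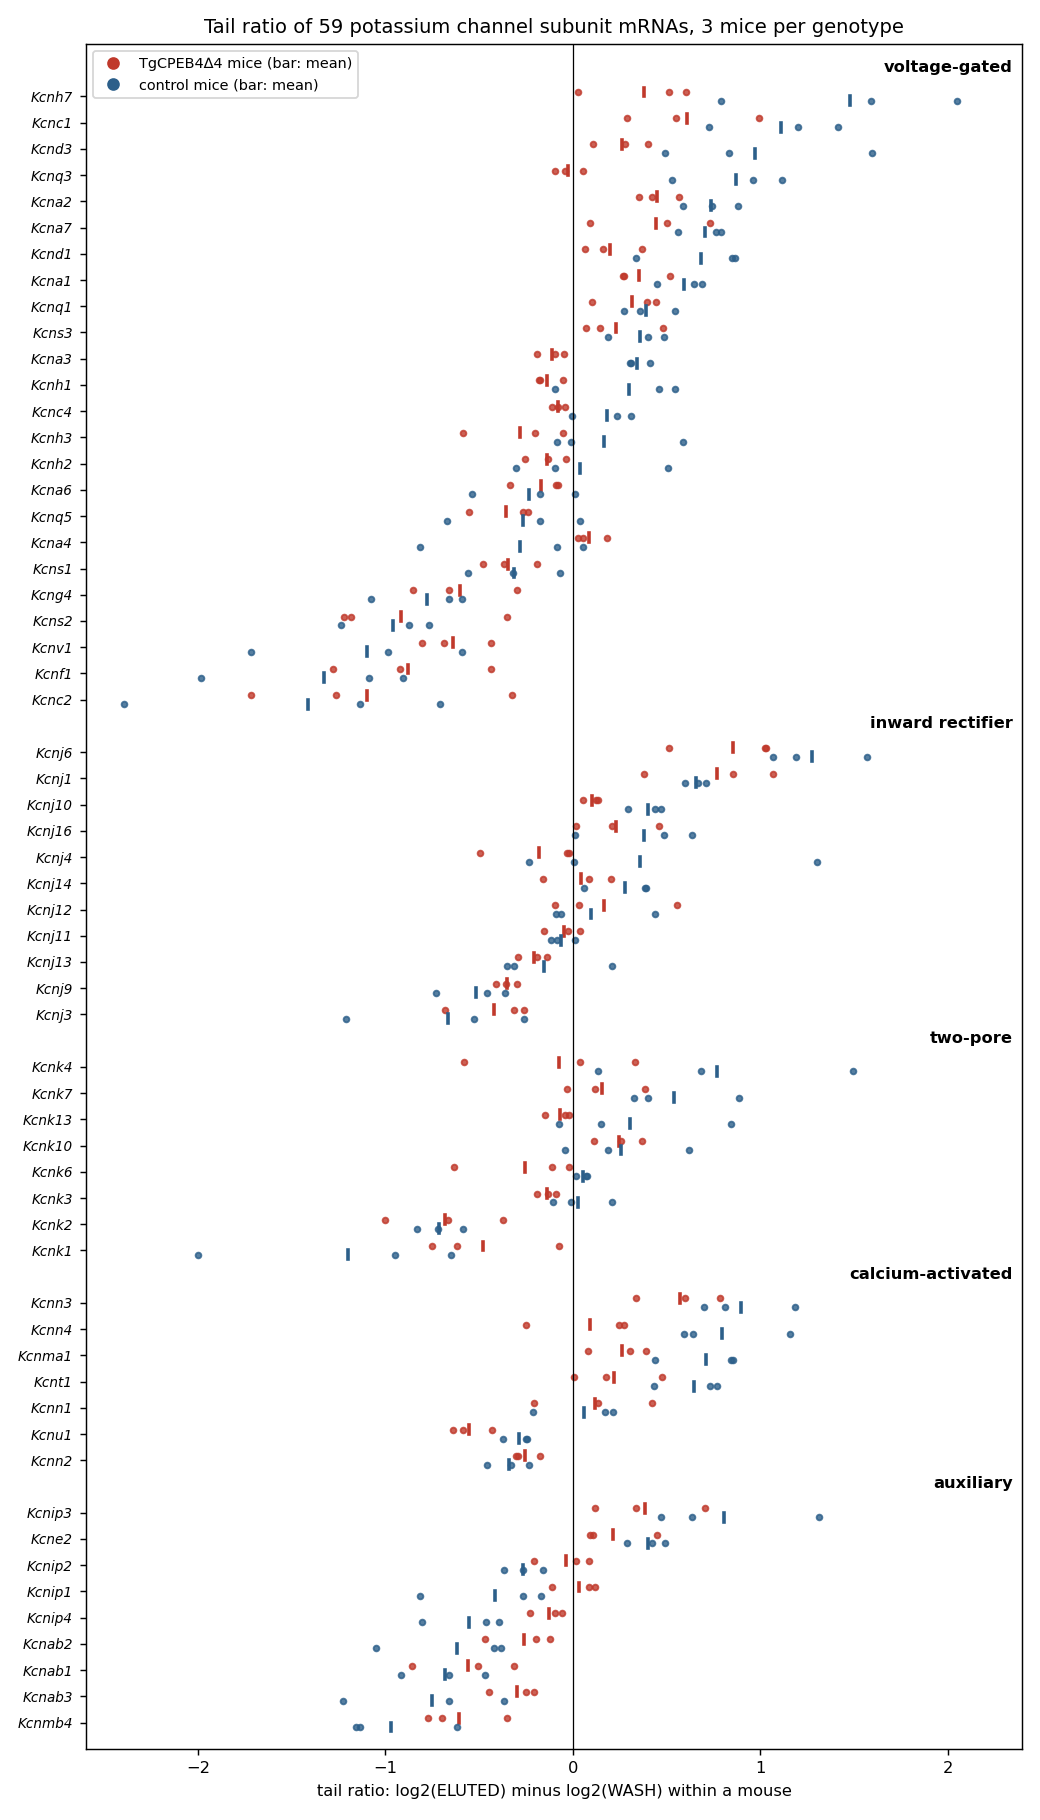
Tail ratio (log2 ELUTED minus log2 WASH, horizontal axis) of the 59 tested subunit mRNAs, ordered within 5 classes by the control mean. Points are mice, with TgCPEB4∆4 above control for each gene, and bars are means of 3. Kcnh7, Kcnj6 and Kcnc1 lie far to the right in control mice and Kcnc2, Kcnf1 and Kcnk1 far to the left.

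Among 18 voltage-gated subunits that form pores by themselves, the mean tail ratio was positive for 9 in TgCPEB4∆4 mice and for 14 in control mice. Of these 18, 2 were called positive and 1 negative in TgCPEB4∆4 mice, and 10 positive and 1 negative in control mice, with medians of 0.03 in TgCPEB4∆4 mice and 0.37 in control mice. Among all genes the mean tail ratio was positive for 35.5% in TgCPEB4∆4 mice and 40.7% in control mice. Calls in each class stand beside all-gene shares of 6.5% positive and 20.5% negative in TgCPEB4∆4 mice, and 20.5% and 39.9% in control mice. The whole voltage-gated class had medians of -0.09 in TgCPEB4∆4 mice, which turned to 0.16 after the second quantile normalization, and 0.24 in control mice (0.15 without control mouse 1). Kcnh7, which encodes a subunit of the ether-a-go-go-related (erg) family, had the highest control ratio of the class. Its ELUTED values were 8.32, 8.66 and 8.38 in TgCPEB4∆4 mice and 10.25, 8.97 and 9.63 in control mice. Its WASH values were 7.71, 8.15 and 8.35 in TgCPEB4∆4 mice and 8.198, 8.17 and 8.04 in control mice. ELUTED exceeded WASH in all 6 mice, by little in TgCPEB4∆4 mouse 3, and the ELUTED values of the genotypes did not overlap. The mean tail ratio was 0.38 ± 0.31 in TgCPEB4∆4 mice (adjusted p = 0.221) and 1.48 ± 0.64 in control mice (adjusted p = 0.00132). Here and below, tail ratios are means ± SD over n = 3 mice.

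Kcnc1 encodes a Kv3 subunit of fast-spiking neurons. It read 11.06, 11.06 and 10.95 in ELUTED and 10.07, 10.50 and 10.66 in WASH of TgCPEB4∆4 mice, and 11.95, 11.10 and 11.71 in ELUTED and 10.53, 10.37 and 10.50 in WASH of control mice. Every ELUTED value lay above every WASH value in both genotypes, and the tail ratio was 0.61 ± 0.36 in TgCPEB4∆4 mice (adjusted p = 0.0356) and 1.11 ± 0.35 in control mice (adjusted p = 0.00156). Its close relative Kcnc2, also a Kv3 subunit of fast-spiking interneurons, was on the other side. Kcnc2 read 6.61, 7.34 and 8.11 in ELUTED and 8.33, 8.60 and 8.43 in WASH of TgCPEB4∆4 mice, and 6.29, 7.51 and 7.69 in ELUTED and 8.68, 8.64 and 8.402 in WASH of control mice. Its ELUTED values varied widely between mice while WASH values stayed within a narrow range, and the ratio was -1.10 ± 0.71 in TgCPEB4∆4 mice (adjusted p = 0.04) and -1.41 ± 0.88 in control mice (adjusted p = 0.00768). The ELUTED value of control mouse 1 was below that array's background of 7.30; without that mouse the control ratio was -0.92 (adjusted p = 0.0134). The other Kv3 member tested, Kcnc4, was not called, at -0.08 ± 0.03 in TgCPEB4∆4 mice (adjusted p = 0.641) and 0.18 ± 0.17 in control mice (adjusted p = 0.221). Within a mouse, the ratio of Kcnc1 exceeded that of Kcnc2 by 2.71, 1.81 and 0.61 in TgCPEB4∆4 mice and by 3.81, 1.86 and 1.91 in control mice, where the first gap holds the Kcnc2 value below background. The pair was chosen after its values were seen, and the gap was not tested.

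Kcnd3 and Kcnd1 encode Kv4 subunits, which carry the A-type current of dendrites. Kcnd3 had tail ratios of 0.40, 0.28 and 0.11 in TgCPEB4∆4 mice and 1.60, 0.49 and 0.84 in control mice, with a mean of 0.26 ± 0.15 in TgCPEB4∆4 mice (adjusted p = 0.328) and 0.97 ± 0.57 in control mice (adjusted p = 0.00407). Kcnd1 had a mean of 0.20 ± 0.16 in TgCPEB4∆4 mice (adjusted p = 0.317) and 0.68 ± 0.30 in control mice (adjusted p = 0.00502). Both were positive in all 6 mice and called only in control mice; the difference between genotypes did not pass (adjusted p = 0.371 for each). Kcnq3, a subunit of the M-channel that restrains repetitive firing, read 8.52, 9.07 and 8.87 in ELUTED and 8.47, 9.16 and 8.91 in WASH of TgCPEB4∆4 mice. In control mice Kcnq3 read 9.97, 9.38 and 10.09 in ELUTED and 9.01, 8.84 and 8.97 in WASH. The 2 fractions overlapped in TgCPEB4∆4 mice and were apart in control mice, with a ratio of -0.03 ± 0.07 in TgCPEB4∆4 mice (adjusted p = 0.894) and 0.87 ± 0.30 in control mice (adjusted p = 0.00163). Kcnq5, which can join Kcnq3 in the M-channel, was not called, at -0.35 ± 0.18 in TgCPEB4∆4 mice (adjusted p = 0.119) and -0.27 ± 0.36 in control mice (adjusted p = 0.172).

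Kv1 subunits, which sit along axons and near nodes, were positive where they passed. Kcna2 had tail ratios of 0.42, 0.35 and 0.57 in TgCPEB4∆4 mice and 0.75, 0.59 and 0.88 in control mice, and a mean of 0.45 ± 0.11 in TgCPEB4∆4 mice (adjusted p = 0.0288) and 0.74 ± 0.15 in control mice (adjusted p = 0.00176). Kcna1, its usual axonal partner, had a mean of 0.35 ± 0.15 in TgCPEB4∆4 mice (adjusted p = 0.0609) and 0.59 ± 0.13 in control mice (adjusted p = 0.00451), with all 6 mice positive. Kcna7 averaged 0.44 ± 0.32 in TgCPEB4∆4 mice (adjusted p = 0.0525) and 0.71 ± 0.13 in control mice (adjusted p = 0.00457) and was above background on 13 of 18 arrays. Kcna3 was negative in all TgCPEB4∆4 mice and positive in all control mice, at -0.11 ± 0.07 in TgCPEB4∆4 mice (adjusted p = 0.472) and 0.34 ± 0.06 in control mice (adjusted p = 0.0306); the control call was lost without any 1 mouse other than TgCPEB4∆4 mouse 3 (adjusted p up to 0.13). Kcna4, which gives a rapidly inactivating current, was not called, at 0.09 ± 0.08 in TgCPEB4∆4 mice (adjusted p = 0.713) and -0.28 ± 0.47 in control mice (adjusted p = 0.186), and its control mean rested on mouse 3 (-0.08, 0.06 and -0.82 in control mice 1, 2 and 3). Kcnq1, better known from heart, was called positive in control mice at 0.39 ± 0.14 (adjusted p = 0.0291) and lay just above the filter. The call was lost without TgCPEB4∆4 mouse 1 and in each fit that left out a control mouse (adjusted p up to 0.101). Kcnq1 was not above background in ELUTED of control mouse 1, where its ratio was an upper bound. Of the other erg and eag-type genes, Kcnh1, Kcnh2 and Kcnh3 were not called in either genotype, nor was the Kv1 subunit Kcna6.

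The silent modifiers, Kv subunits that form no channel alone and join Kv2 subunits, were mostly on the negative side. Of the 6 tested, 4 were called negative and 0 positive in TgCPEB4∆4 mice, and 4 negative and 1 positive in control mice, with medians of -0.62 in TgCPEB4∆4 mice and -0.87 in control mice. Kcnf1 read 6.74, 7.40 and 7.90 in ELUTED and 7.66, 8.68 and 8.34 in WASH of TgCPEB4∆4 mice, and 6.42, 7.76 and 7.25 in ELUTED and 8.41, 8.67 and 8.34 in WASH of control mice. ELUTED was below WASH in each of the 6 mice, and the ratio was -0.88 ± 0.42 in TgCPEB4∆4 mice (adjusted p = 0.0246) and -1.33 ± 0.58 in control mice (adjusted p = 0.00206). The ELUTED value of control mouse 1 was below background, and without that mouse the control ratio was -0.998 (adjusted p = 0.00161). Kcnv1, which reduces Kv2 current, had ratios of -0.80, -0.69 and -0.43 in TgCPEB4∆4 mice and -1.72, -0.59 and -0.98 in control mice, with a mean of -0.64 ± 0.19 in TgCPEB4∆4 mice (adjusted p = 0.0445) and -1.10 ± 0.57 in control mice (adjusted p = 0.00268). Kcns2 had a mean of -0.92 ± 0.49 in TgCPEB4∆4 mice (adjusted p = 0.012) and -0.96 ± 0.25 in control mice (adjusted p = 0.00362) and Kcng4 a mean of -0.60 ± 0.28 in TgCPEB4∆4 mice (adjusted p = 0.0234) and -0.78 ± 0.26 in control mice (adjusted p = 0.00374), again negative in every mouse. Kcng4 was not above background in ELUTED of control mouse 1 and of TgCPEB4∆4 mouse 2, so its ratios there are only bounds. Kcns1 was negative in every mouse and not called, at -0.35 ± 0.15 in TgCPEB4∆4 mice (adjusted p = 0.0858) and -0.32 ± 0.25 in control mice (adjusted p = 0.0754). Kcns3 was the exception, positive in every mouse, at 0.23 ± 0.22 in TgCPEB4∆4 mice (adjusted p = 0.208) and 0.36 ± 0.15 in control mice (adjusted p = 0.0454); its control call was lost whichever of the 6 mice was left out.

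**Figure D2:**
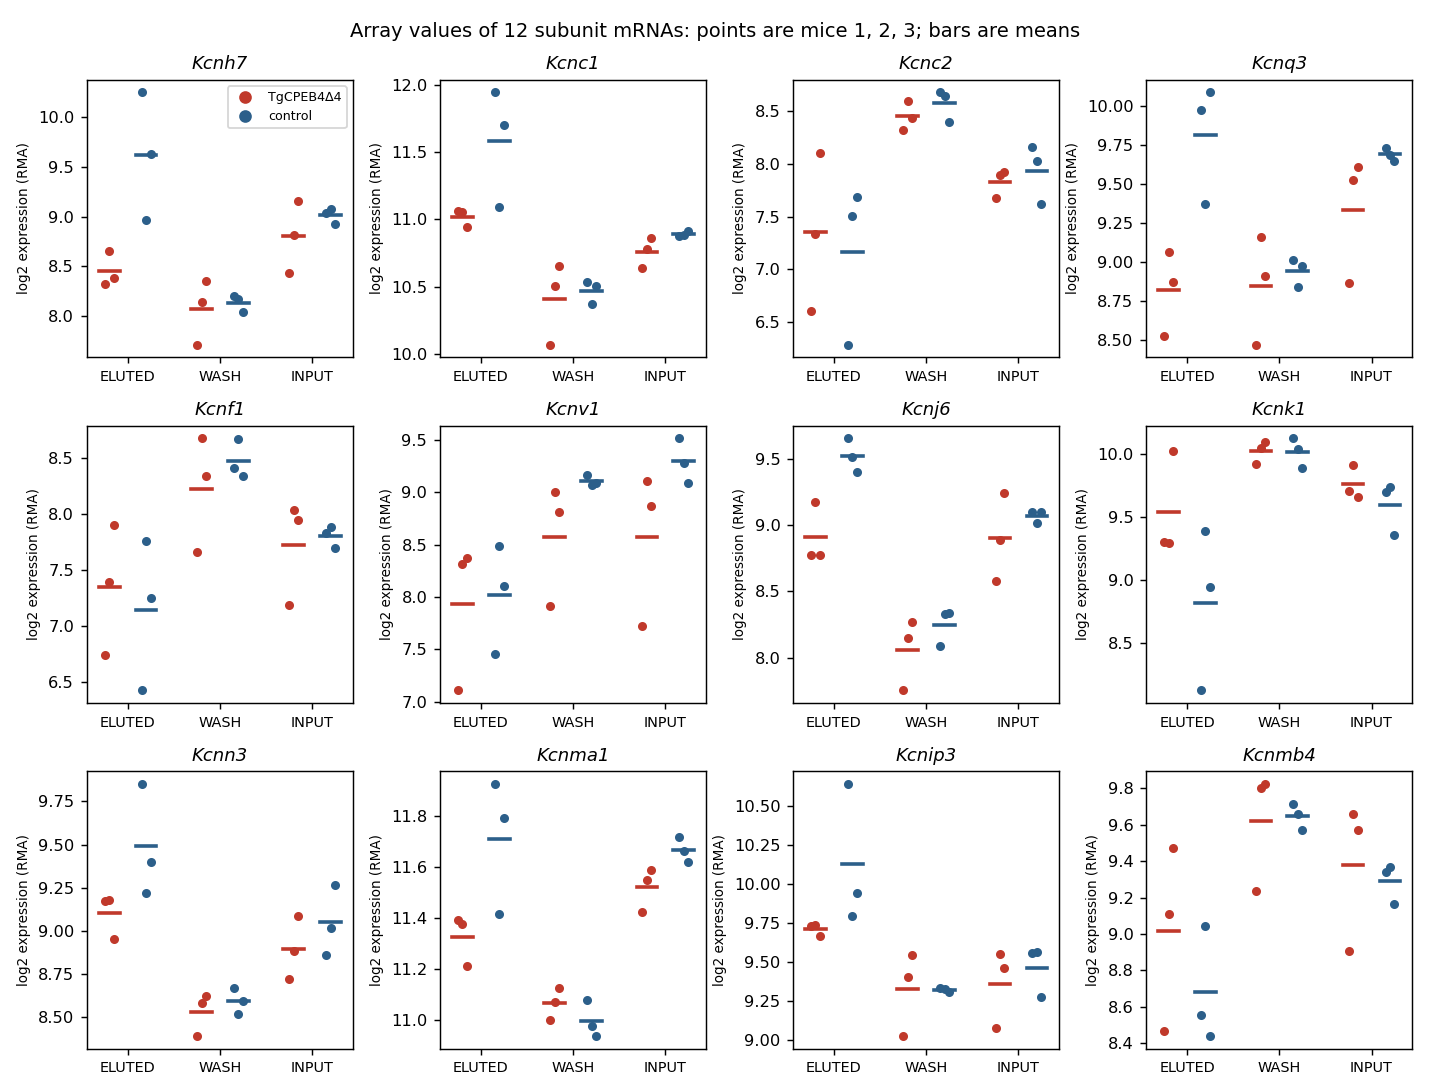
Deposited log2 values of 12 subunit mRNAs in ELUTED, WASH and INPUT arrays, with TgCPEB4∆4 left of control in each pair. Points are mice 1, 2 and 3 from left to right and bars are means of 3. For Kcnh7 and Kcnq3 the ELUTED values of TgCPEB4∆4 mice lie below those of control mice, and for Kcnk1 and Kcnmb4 ELUTED means lie below WASH means in both genotypes.

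Inward rectifiers divided within a single channel type. Of 11 tested, 2 were called positive and 0 negative in TgCPEB4∆4 mice, and 3 positive and 2 negative in control mice, with medians of 0.05 in TgCPEB4∆4 mice (-0.05 with centred arrays, -0.04 without TgCPEB4∆4 mouse 1) and 0.28 in control mice (-0.07 without control mouse 1). Kcnj6 encodes GIRK2, the G-protein-gated subunit of many neurons. It read 8.78, 9.18 and 8.78 in ELUTED and 7.75, 8.15 and 8.27 in WASH of TgCPEB4∆4 mice, and 9.66, 9.52 and 9.41 in ELUTED and 8.09, 8.33 and 8.33 in WASH of control mice. All ELUTED values lay above all WASH values, and TgCPEB4∆4 ELUTED values lay below the control ones. The tail ratio was 0.86 ± 0.30 in TgCPEB4∆4 mice (adjusted p = 0.00849) and 1.28 ± 0.26 in control mice (adjusted p = 0.000691), the smallest adjusted p among the subunits in each genotype. Its partners in heteromeric GIRK channels, Kcnj3 (GIRK1) and Kcnj9 (GIRK3), were negative in all 6 mice. Kcnj3 averaged -0.42 ± 0.23 in TgCPEB4∆4 mice (adjusted p = 0.12) and -0.67 ± 0.49 in control mice (adjusted p = 0.0158) and Kcnj9 averaged -0.35 ± 0.06 in TgCPEB4∆4 mice (adjusted p = 0.0621) and -0.52 ± 0.19 in control mice (adjusted p = 0.00824). Kcnj6 exceeded Kcnj3 within a mouse by 1.71, 1.29 and 0.83 in TgCPEB4∆4 mice and by 2.78, 1.45 and 1.60 in control mice. This pair was chosen after its values were seen, and the gap was not tested. The Kcnj3 call was lost without control mouse 1 (adjusted p = 0.0601) and the Kcnj9 call under the second quantile normalization, and for both genes another probe set gave a positive ratio in control mice.

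Kcnj10 encodes the inward rectifier of astrocytes that takes up potassium, and Kcnj16 a subunit that joins it. Kcnj10 had ratios of 0.13, 0.05 and 0.13 in TgCPEB4∆4 mice and 0.44, 0.29 and 0.47 in control mice, with a mean of 0.10 ± 0.04 in TgCPEB4∆4 mice (adjusted p = 0.5) and 0.40 ± 0.10 in control mice (adjusted p = 0.0168), and its control call was lost without control mouse 3 (adjusted p = 0.0843). Kcnj16 was positive in every mouse and not called, at 0.23 ± 0.22 in TgCPEB4∆4 mice (adjusted p = 0.283) and 0.38 ± 0.33 in control mice (adjusted p = 0.065); it was below background on all 6 INPUT arrays. Kcnj10 minus Kcnj16 within a mouse was positive in 2 of 6 mice, at -0.12 ± 0.22 in TgCPEB4∆4 mice and 0.02 ± 0.35 in control mice. Kcnj11, the pore of the ATP-sensitive channel, was not called, at -0.05 ± 0.10 in TgCPEB4∆4 mice (adjusted p = 0.777) and -0.06 ± 0.07 in control mice (adjusted p = 0.646). Kcnj4 was not called, at -0.18 ± 0.27 in TgCPEB4∆4 mice (adjusted p = 0.616) and 0.36 ± 0.83 in control mice (adjusted p = 0.268), with a control mean that rested on mouse 1 (1.30, -0.23 and 0.01 in control mice 1, 2 and 3). Kcnj1, best known from kidney, was called positive in both genotypes, at 0.77 ± 0.35 in TgCPEB4∆4 mice (adjusted p = 0.00998) and 0.66 ± 0.05 in control mice (adjusted p = 0.0064), but was above background on 0 of 6 INPUT arrays. It was also not above background in ELUTED of control mouse 1, where its ratio was an upper bound. Kcnj12, Kcnj13 and Kcnj14 were not called.

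Two-pore subunits gave 0 positive and 1 negative call in TgCPEB4∆4 mice, and 2 positive and 2 negative calls in control mice, of 8 tested, with medians of -0.11 in TgCPEB4∆4 mice and 0.16 in control mice (0.06 without control mouse 1, -0.34 with the filter at the 60th percentile). Kcnk1 encodes TWIK1, a weak background channel of neurons and astrocytes. It read 9.30, 9.30 and 10.03 in ELUTED and 9.92, 10.05 and 10.10 in WASH of TgCPEB4∆4 mice, and 8.13, 9.40 and 8.94 in ELUTED and 10.13, 10.04 and 9.89 in WASH of control mice. WASH was nearly level across the 6 mice and ELUTED was not, and the ratio was -0.48 ± 0.36 in TgCPEB4∆4 mice (adjusted p = 0.167) and -1.20 ± 0.71 in control mice (adjusted p = 0.00442). Kcnk2 and Kcnk4 encode TREK1 and TRAAK, which both respond to stretch and lipids. Kcnk2 was negative in all 6 mice, with a mean of -0.68 ± 0.32 in TgCPEB4∆4 mice (adjusted p = 0.0134) and -0.71 ± 0.12 in control mice (adjusted p = 0.00424). Kcnk4 had ratios of 0.33, 0.04 and -0.58 in TgCPEB4∆4 mice and 1.496, 0.13 and 0.69 in control mice, with a mean of -0.07 ± 0.47 in TgCPEB4∆4 mice (adjusted p = 0.843) and 0.77 ± 0.69 in control mice (adjusted p = 0.0304); the control call was lost without control mouse 1, control mouse 3 or TgCPEB4∆4 mouse 2 (adjusted p = 0.129, 0.085 and 0.0521). Kcnk7, for which no current of its own is established, was called positive in control mice at 0.54 ± 0.30 (adjusted p = 0.0159), a call lost without control mouse 1 (adjusted p = 0.0674), and averaged 0.16 ± 0.21 (adjusted p = 0.439) in TgCPEB4∆4 mice. Kcnk7 was not above background in ELUTED of control mouse 1, where its ratio was an upper bound. Kcnk3, Kcnk6, Kcnk10 and Kcnk13 were not called.

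Calcium-activated and related subunits had the highest median of the 5 classes in each genotype, 0.12 in TgCPEB4∆4 mice and 0.65 in control mice. Of 7 tested, 1 was called positive and 1 negative in TgCPEB4∆4 mice, and 4 positive and 1 negative in control mice. Kcnn3 encodes the small-conductance subunit SK3, which shapes the afterhyperpolarisation. It read 9.17, 9.18 and 8.95 in ELUTED and 8.39, 8.58 and 8.62 in WASH of TgCPEB4∆4 mice, and 9.85, 9.22 and 9.40 in ELUTED and 8.67, 8.52 and 8.59 in WASH of control mice. The 2 fractions did not overlap in either genotype, and the ratio was 0.57 ± 0.23 in TgCPEB4∆4 mice (adjusted p = 0.0233) and 0.90 ± 0.25 in control mice (adjusted p = 0.00163). Its relatives did not share this: Kcnn2 (SK2) averaged -0.26 ± 0.07 in TgCPEB4∆4 mice (adjusted p = 0.125) and -0.34 ± 0.11 in control mice (adjusted p = 0.0342), negative in every mouse, and Kcnn1 (SK1) averaged 0.12 ± 0.32 in TgCPEB4∆4 mice (adjusted p = 0.577) and 0.06 ± 0.24 in control mice (adjusted p = 0.751). The Kcnn2 call was lost without any 1 mouse other than control mouse 1 (adjusted p up to 0.16). Kcnn4, the intermediate-conductance subunit, averaged 0.09 ± 0.29 in TgCPEB4∆4 mice (adjusted p = 0.686) and 0.80 ± 0.31 in control mice (adjusted p = 0.00424) and was below background on all INPUT arrays.

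Kcnma1 encodes the pore of the large-conductance BK channel. It read 11.39, 11.38 and 11.21 in ELUTED and 11.001, 11.07 and 11.13 in WASH of TgCPEB4∆4 mice, and 11.93, 11.42 and 11.79 in ELUTED and 11.08, 10.98 and 10.94 in WASH of control mice. ELUTED exceeded WASH in all 6 mice and the ratio was 0.26 ± 0.16 in TgCPEB4∆4 mice (adjusted p = 0.171) and 0.71 ± 0.24 in control mice (adjusted p = 0.00322). Kcnt1, the sodium-activated Slack subunit, had ratios of 0.48, 0.01 and 0.18 in TgCPEB4∆4 mice and 0.77, 0.44 and 0.73 in control mice, with a mean of 0.22 ± 0.24 in TgCPEB4∆4 mice (adjusted p = 0.249) and 0.65 ± 0.18 in control mice (adjusted p = 0.00522). Kcnu1, a Slo subunit known from sperm, was negative in every mouse, at -0.55 ± 0.11 in TgCPEB4∆4 mice (adjusted p = 0.0129) and -0.29 ± 0.07 in control mice (adjusted p = 0.0614). It was above background on 10 of 18 arrays and on none of the INPUT arrays.

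Of 9 auxiliary subunits tested, 0 were called positive and 2 negative in TgCPEB4∆4 mice, and 2 positive and 6 negative in control mice, with medians of -0.13 in TgCPEB4∆4 mice and -0.55 in control mice. After the second quantile normalization the TgCPEB4∆4 median was 0.08 with 0 called, and the control median -0.15 with 1 positive and 2 negative. Over all 14 members, without the filter, the medians were -0.002 in TgCPEB4∆4 mice and -0.05 in control mice. Kcnmb4 encodes the neuronal beta subunit of the BK channel. It read 8.46, 9.11 and 9.48 in ELUTED and 9.24, 9.81 and 9.83 in WASH of TgCPEB4∆4 mice, and 8.56, 9.04 and 8.44 in ELUTED and 9.71, 9.66 and 9.57 in WASH of control mice. ELUTED was below WASH in each mouse, and the ratio was -0.61 ± 0.23 in TgCPEB4∆4 mice (adjusted p = 0.0225) and -0.97 ± 0.30 in control mice (adjusted p = 0.00147). The 3 Kv beta subunits, which join Kv1 channels, were negative in all mice. Kcnab1 averaged -0.56 ± 0.28 in TgCPEB4∆4 mice (adjusted p = 0.0265) and -0.68 ± 0.22 in control mice (adjusted p = 0.00547), Kcnab2 -0.26 ± 0.18 in TgCPEB4∆4 mice (adjusted p = 0.237) and -0.62 ± 0.37 in control mice (adjusted p = 0.0114) and Kcnab3 -0.30 ± 0.13 in TgCPEB4∆4 mice (adjusted p = 0.198) and -0.75 ± 0.44 in control mice (adjusted p = 0.00611). Kcnab3 was below background in ELUTED of control mouse 1, and its control ratio without that mouse was -0.515 (adjusted p = 0.0154). The Kcnab1 and Kcnab2 calls in control mice were lost under the second quantile normalization.

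Kv channel-interacting proteins, calcium-binding partners of Kv4 subunits, divided. Kcnip3, which also encodes the transcriptional repressor DREAM, read 9.73, 9.74 and 9.67 in ELUTED and 9.03, 9.41 and 9.55 in WASH of TgCPEB4∆4 mice. In control mice Kcnip3 read 10.64, 9.80 and 9.94 in ELUTED and 9.33, 9.33 and 9.31 in WASH. The ratio was positive in each mouse, at 0.39 ± 0.30 in TgCPEB4∆4 mice (adjusted p = 0.142) and 0.81 ± 0.45 in control mice (adjusted p = 0.00697). Kcnip4 had ratios of -0.10, -0.06 and -0.23 in TgCPEB4∆4 mice and -0.80, -0.39 and -0.47 in control mice, with a mean of -0.13 ± 0.09 in TgCPEB4∆4 mice (adjusted p = 0.461) and -0.55 ± 0.22 in control mice (adjusted p = 0.00726), and its control call was lost under the second quantile normalization. Kcnip1 averaged 0.03 ± 0.13 in TgCPEB4∆4 mice (adjusted p = 0.887) and -0.42 ± 0.35 in control mice (adjusted p = 0.0428), a control call lost without any 1 mouse other than control mouse 2 (adjusted p up to 0.231), and Kcnip2 was not called, at -0.04 ± 0.15 in TgCPEB4∆4 mice (adjusted p = 0.842) and -0.26 ± 0.10 in control mice (adjusted p = 0.0924). Kcne2 was called positive in control mice at 0.40 ± 0.10 (adjusted p = 0.0254), lost in each fit that left out a control mouse (adjusted p up to 0.0828), and averaged 0.22 ± 0.20 (adjusted p = 0.219) in TgCPEB4∆4 mice. It was above background on 9 of 18 arrays and not in ELUTED of control mouse 1, where its ratio was an upper bound. It was also not above background in WASH of control mouse 3, where its ratio was a lower bound.

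Pore-forming subunits and the auxiliary subunits known to join them lay apart in several channel complexes; these pairs were chosen after their values were seen and were not tested. The ratio of Kcnma1 exceeded that of Kcnmb4 within a mouse by 1.16, 1.01 and 0.43 in TgCPEB4∆4 mice and by 2.00, 1.06 and 1.99 in control mice. The ratio of Kcna1 exceeded that of Kcnab1 by 1.03, 1.13 and 0.58 in TgCPEB4∆4 mice and by 1.31, 0.92 and 1.61 in control mice, and that of Kcna2 exceeded Kcnab2 by 0.71 ± 0.10 in TgCPEB4∆4 mice and 1.36 ± 0.40 in control mice. Kcnd3 exceeded Kcnip4 by 0.39 ± 0.09 in TgCPEB4∆4 mice and 1.53 ± 0.78 in control mice. These 4 gaps were positive in all 6 mice, which the choice of pairs by their values makes likely. Kcnd3 minus Kcnip3 was negative in the 3 TgCPEB4∆4 mice (-0.12 ± 0.16) and positive in the 3 control mice (0.17 ± 0.14). All gaps are between brightest probe sets. Kcna1, Kcnab2 and Kcnd3 each had another probe set of opposite sign in control mice, at -0.25, 0.16 and -0.60.

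Subunits with a high tail ratio in TgCPEB4∆4 mice mostly had a high one in control mice. Across the 59 genes the TgCPEB4∆4 and control means correlated at a Pearson r of 0.875, given as a description since all points come from the same 6 mice, and 46 had the same sign in both. Of the 14 TgCPEB4∆4 calls 13 (92.9%) were also called in control mice, each with the same sign. Of the 38 control calls the same 13 (34.2%) were also called in TgCPEB4∆4 mice. Among all 11974 genes 27% were called in TgCPEB4∆4 mice and 60.4% in control mice, in the same fit. Their overlap, shared signs and correlation were not computed, so this agreement is not shown to be particular to the subunits. The absolute mean ratio was smaller in TgCPEB4∆4 mice for 48 of the 59 subunits (81.4%), against 76.8% of all 11974 genes. The spreads of tail ratios given above overlapped between genotypes, with control mouse 2 below TgCPEB4∆4 mice 1 and 2, and their part in this was not tested. With each mouse's tail ratios rescaled to the same SD, 13 subunits were positive and 18 negative in TgCPEB4∆4 mice, and 19 positive and 14 negative in control mice; among all genes 16.6% were then positive and 41.6% negative in TgCPEB4∆4 mice, and 18.3% and 38.7% in control mice.

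**Figure D3:**
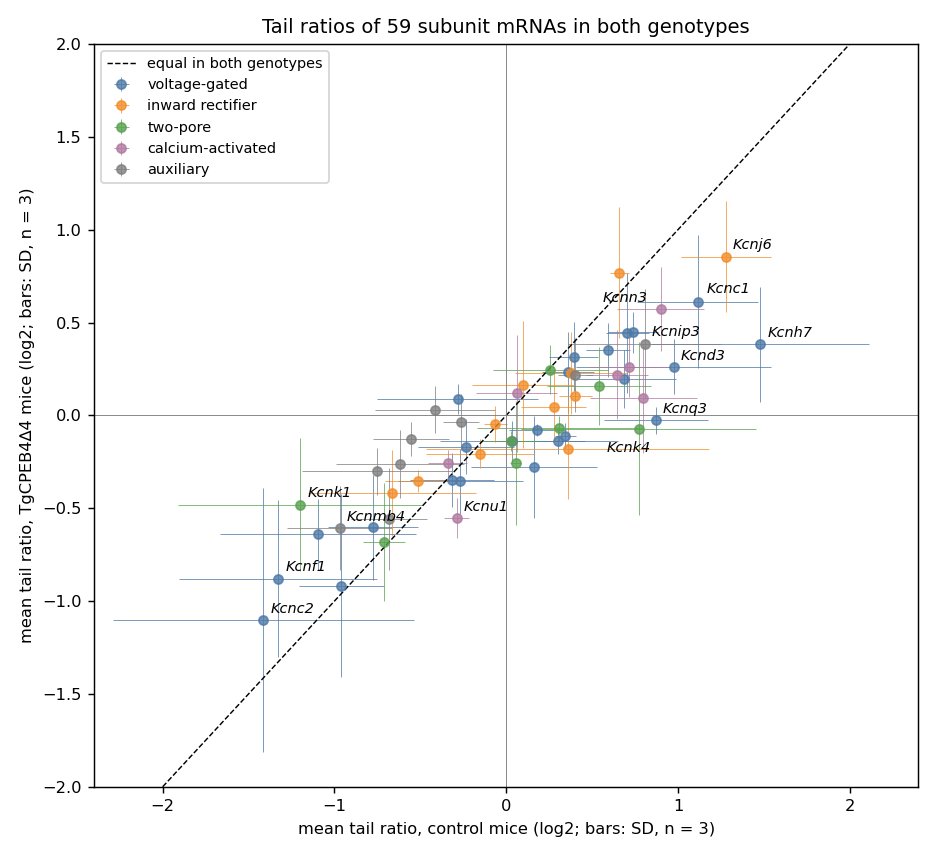
Mean tail ratio of 59 subunit mRNAs in TgCPEB4∆4 mice (vertical axis) and control mice (horizontal axis), coloured by class, with SD bars over 3 mice and a dashed line of equality. Positive genes such as Kcnh7, Kcnq3 and Kcnk4 lie below the line, and negative ones such as Kcnc2, Kcnf1 and Kcnk1 above it.

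Different probe sets of a gene did not always fall on the same side. Of 29 subunits with more than 1 tested probe set, the sign differed between probe sets for 10 in TgCPEB4∆4 mice and 16 in control mice. At least 1 of these probe sets passed for 4 genes in TgCPEB4∆4 mice and for 10 in control mice: Kcna1, Kcnab2, Kcnc4, Kcnd1, Kcnd3, Kcnip1, Kcnj3, Kcnj9, Kcnk4 and Kcnq5. Kcnd3 was called both ways in control mice. A second Kcnd3 probe set averaged 0.41 ± 0.36 (adjusted p = 0.0982) in TgCPEB4∆4 mice and 0.98 ± 0.29 (adjusted p = 0.00212) in control mice, whereas another averaged -0.64 ± 0.23 (adjusted p = 0.0345) in TgCPEB4∆4 mice and -0.60 ± 0.48 (adjusted p = 0.0234) in control mice. A Kcnq5 probe set other than the brightest averaged 1.36 ± 0.33 (adjusted p = 0.005) in TgCPEB4∆4 mice and 1.16 ± 0.50 (adjusted p = 0.00215) in control mice, against negative values for the brightest one. Kcnj6 was uniform: its 4 probe sets were positive and called in both genotypes, between 0.86 and 1.05 in TgCPEB4∆4 mice and between 0.81 and 1.71 in control mice. Kcnk1 and Kcnv1 each had 2 probe sets, negative and called in control mice, and so had Kcnip4 with 3. Which part of a transcript each probe set reads was not analysed here.

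**Figure D4:**
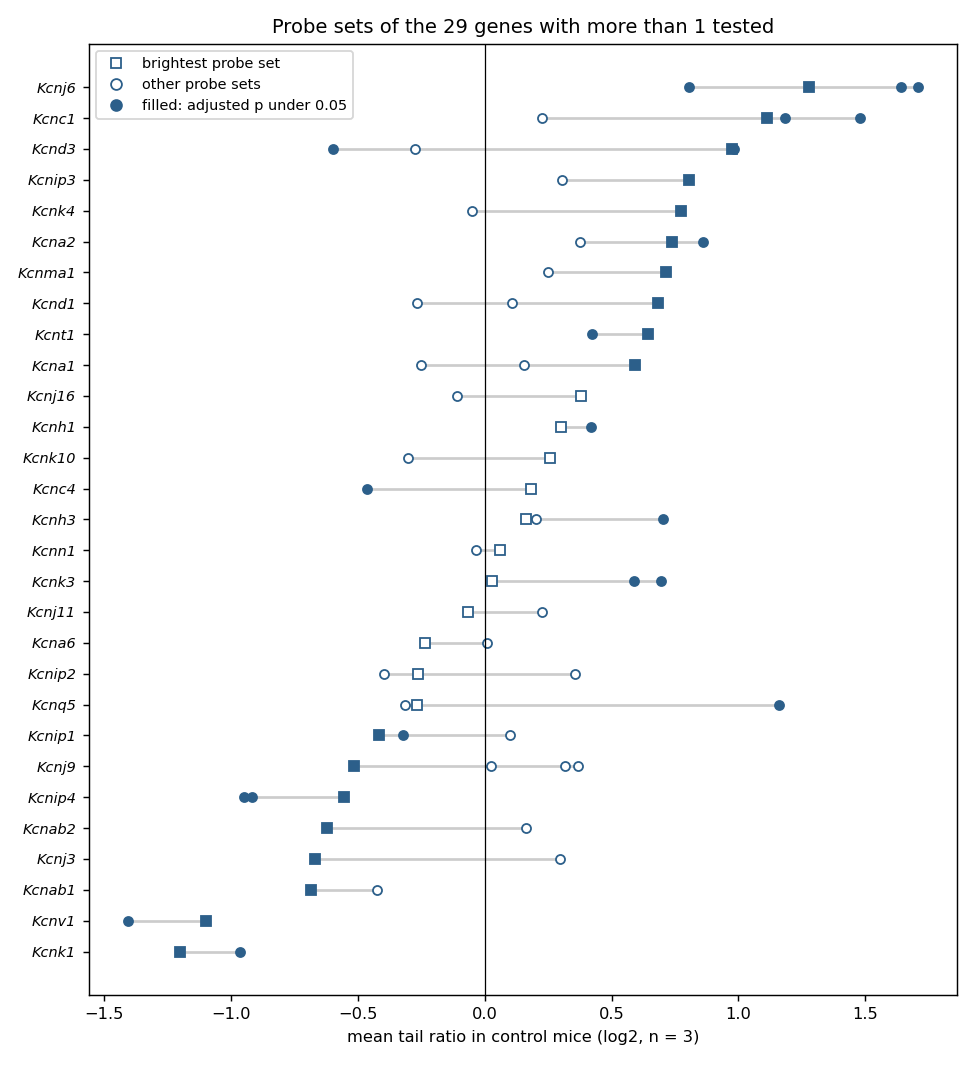
Mean tail ratio in the 3 control mice of each tested probe set of the 29 subunits with more than 1, in log2 units. Squares are the brightest probe sets, circles the others, and filled symbols passed at adjusted p under 0.05. Kcnj6 stays right of 0 and Kcnk1, Kcnv1, Kcnip4 and Kcnab1 left of 0, while Kcnd3 and Kcnq5 span it.

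Neighbouring genes of the family were also set side by side, by their order in RefSeq. Kcnj9 and Kcnj10 are adjacent and averaged -0.35 and 0.10 in TgCPEB4∆4 mice, and -0.52 and 0.40 in control mice, where both were called. Kcna3 and Kcna2 averaged -0.11 and 0.45 in TgCPEB4∆4 mice and 0.34 and 0.74 in control mice, and Kcna1 and Kcna6 averaged 0.35 and -0.17 in TgCPEB4∆4 mice and 0.59 and -0.23 in control mice. Tail ratio had little relation to level or gene length among the 59 subunits. Its Pearson r with the INPUT level was 0.073 in TgCPEB4∆4 mice and 0.014 in control mice, against -0.189 and -0.303 over all 11974 genes, and with log10 gene length it was 0.085 and 0.07; these are descriptions across genes, which are not independent.

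Total RNA was compared between genotypes next. In INPUT 0 of 59 subunits passed at adjusted p under 0.05 (smallest 0.423), as for 0% of all genes in either direction. At an unadjusted p under 0.05, 3 differences were positive and 4 negative, against 8.19% positive and 3.1% negative among all genes. The median difference was -0.10 over the subunits and 0.03 over all genes. Of the subunits 38 of 59 were negative, whereas 57.1% of all genes were positive. Voltage-gated subunits had a median of -0.18. TgCPEB4∆4 mouse 1 weighed on this: it had the lowest INPUT value of the 6 mice for 36 of 59 subunits (61%), against 27.6% of all genes, and without it the median difference was -0.03 over the subunits and -0.04 over the voltage-gated ones. Its raised means of interferon and acute-phase genes and of astrocyte markers are given above. The mean of the 5 neuronal markers was 11.31, 11.53 and 11.45 in TgCPEB4∆4 mice and 11.67, 11.55 and 11.47 in control mice. Mean INPUT levels were 9.50, 8.90 and 8.57 in TgCPEB4∆4 mice and 8.54, 8.57 and 8.47 in control mice for 5 microglial markers, and 8.02, 7.73 and 7.43 in TgCPEB4∆4 mice and 7.12, 7.15 and 7.19 in control mice for 5 meningeal and fibroblast markers. For 5 endothelial and mural markers they were 8.97, 8.75 and 8.77 in TgCPEB4∆4 mice and 8.37, 8.59 and 8.62 in control mice. The means of the last 2 lists did not overlap between genotypes. Single genes of these lists did overlap, among them Pecam1, Pdgfrb, Flt1 and Dcn, and Col1a2 was above background on 0 arrays. By genotype mean 4 of the 5 microglial markers were higher in TgCPEB4∆4 mice. P2ry12 was not, at 9.251, 9.585 and 9.13 in TgCPEB4∆4 mice and 9.463, 9.445 and 9.145 in control mice. The part of these markers in the differences was not tested. In tissue, fewer cells of a type and less RNA per cell cannot be told apart.

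The 3 subunits with the smallest p in INPUT were Kcnj13, Kcna4 and Kcnk6, and none passed. Lack of overlap between genotypes is likely in genes picked this way. Kcna4 read 8.61, 8.77 and 8.85 in TgCPEB4∆4 mice and 9.14, 9.01 and 9.36 in control mice, which did not overlap, a difference of -0.42 ± 0.13 (SE; adjusted p = 0.423). Kcnj13, an inward rectifier of choroid plexus and other epithelia, read 7.30, 6.45 and 6.55 in TgCPEB4∆4 mice and 5.94, 6.18 and 5.95 in control mice, and Kcnk6 read 6.44, 5.97 and 6.09 in TgCPEB4∆4 mice and 5.77, 5.72 and 5.71 in control mice. Both were below background on all INPUT arrays, so no fold is given, and TgCPEB4∆4 mouse 1 was the highest of the 6 for each.

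In WASH 0 of 59 subunits passed (smallest adjusted p 0.156), as for all genes. At an unadjusted p under 0.05, 3 were positive and 7 negative, against 11.3% positive and 5.4% negative among all genes, and the median difference was -0.07, against 0.03 over all genes. Without TgCPEB4∆4 mouse 1 the median of the subunits was 0.02. Kcnj1 read 6.10, 6.17 and 6.18 in TgCPEB4∆4 mice and 6.61, 6.62 and 6.63 in control mice, a difference of -0.47 ± 0.08 (SE; adjusted p = 0.156). Kcng4, a silent modifier, read 7.19, 7.06 and 7.13 in TgCPEB4∆4 mice and 7.72, 7.74 and 7.44 in control mice, a difference of -0.51 ± 0.11 (SE; adjusted p = 0.156). Kcnj9 read 9.23, 9.34 and 9.45 in TgCPEB4∆4 mice and 9.75, 9.89 and 9.70 in control mice, a difference of -0.44 ± 0.10 (SE; adjusted p = 0.158). The genotypes did not overlap for any of these 3 genes, yet none passed. Lack of overlap is likely in genes picked by their small p in WASH, and its share over all genes was not counted.

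In ELUTED 0 of 59 subunits passed (smallest adjusted p 0.278), again as for all genes. At an unadjusted p under 0.05, 2 were positive and 8 negative, against 15.4% positive and 2.68% negative among all genes. The median difference was -0.21 over the subunits and 0.08 over all genes. Of the subunits 43 of 59 were negative, whereas 56.6% of all genes were positive. By class the median was -0.30 for voltage-gated subunits (21 of 24 negative), -0.35 for calcium-activated ones (7 of 7 negative) and 0.20 for auxiliary ones (6 of 9 positive, but -0.11 over all 14 without the filter). Without TgCPEB4∆4 mouse 1 the median difference was -0.22 over the 59 subunits, and without control mouse 1 it was -0.18. Without control mouse 1 the class medians were -0.25 for voltage-gated, -0.21 for calcium-activated, -0.08 for inward rectifier, -0.09 for two-pore and 0.07 for auxiliary subunits, against 0.06 over all genes. Kcnq3 and Kcnh7 had the smallest p together with Kcnj6, whose values are given above. The differences were -0.99 ± 0.25 (SE; adjusted p = 0.278) for Kcnq3, -1.16 ± 0.31 (SE; adjusted p = 0.278) for Kcnh7 and -0.62 ± 0.19 (SE; adjusted p = 0.279) for Kcnj6. In each of the 3 genes the TgCPEB4∆4 values lay below the control values without overlap. They were picked by their small p in this same comparison, so the lack of overlap is no separate support. Kcnk4 read 7.19, 7.39 and 7.54 in TgCPEB4∆4 mice and 9.18, 7.60 and 8.26 in control mice, a difference of -0.97 ± 0.37 (SE; adjusted p = 0.289), and Kcnip4, on the other side, read 9.11, 9.09 and 9.26 in TgCPEB4∆4 mice and 8.51, 8.87 and 8.72 in control mice, a difference of 0.45 ± 0.17 (SE; adjusted p = 0.292); these 2 were named after their values were seen. Calls depended on the model: with all 18 arrays and mouse as a random block 8 subunits were lower (Kcnh7, Kcnq3, Kcnj6, Kcnc1, Kcnn4, Kcna2, Kcns3 and Kcnma1) and 2 higher (Kcnip1 and Kcnip4), and without control mouse 2 there were 4 lower (Kcnh7, Kcnk4, Kcnq3 and Kcnc1). Among all genes 16.1% were higher and 3.14% lower with the random block, and 9.5% higher and 0.71% lower without control mouse 2.

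**Figure D5:**
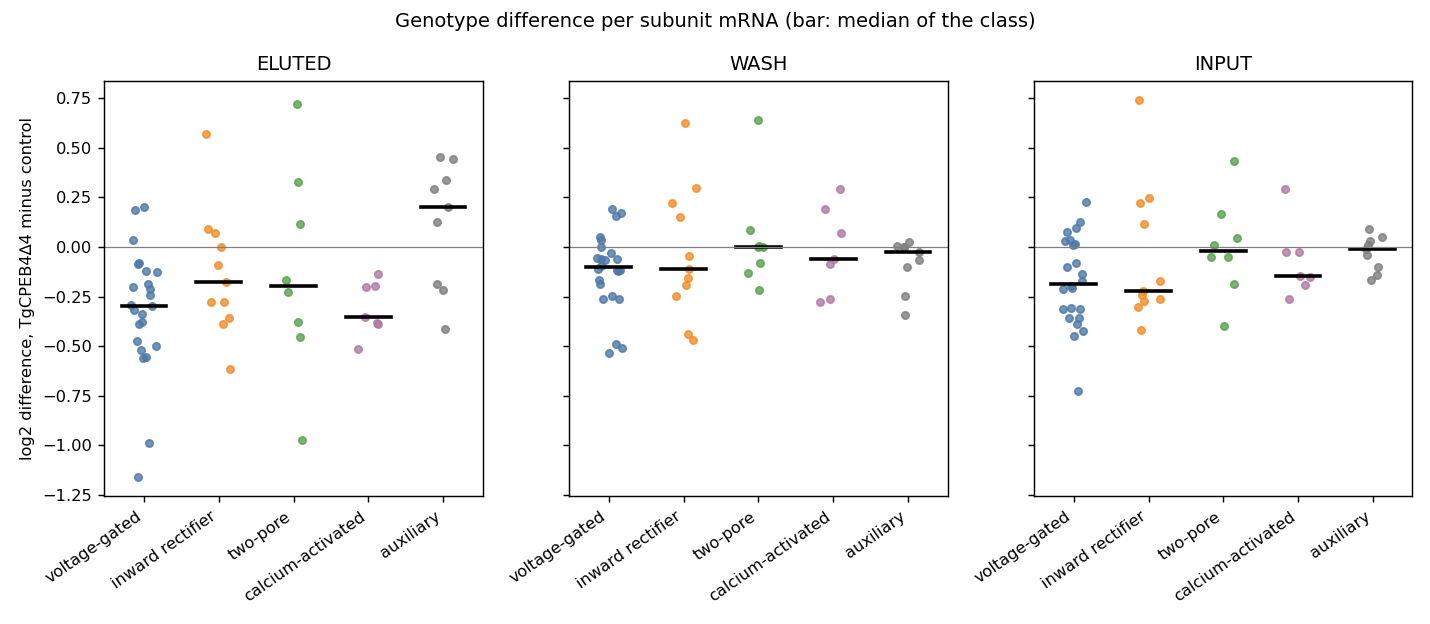
Difference in log2 value between TgCPEB4∆4 and control means for each of 59 subunit mRNAs in ELUTED, WASH and INPUT, by class, with the class median as a bar. In ELUTED the median lies below 0 for 4 classes and at 0.20 for auxiliary subunits (0.07 without control mouse 1, -0.11 over all 14 without the filter); no single gene passed in any of the 3 preparations.

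For the genotype difference in the tail ratio itself, 0 of 59 subunits passed (smallest adjusted p 0.371), as for all genes. At an unadjusted p under 0.05, 1 was positive and 8 were negative, against 10.9% positive and 3.25% negative among all genes, and the median difference was -0.15, against 0.02 over all genes. The differences of smallest p were -0.90 ± 0.20 (SE; adjusted p = 0.371) for Kcnq3, -1.10 ± 0.33 (SE; adjusted p = 0.371) for Kcnh7 and -0.71 ± 0.23 (SE; adjusted p = 0.371) for Kcnn4. The per-mouse ratios of Kcnq3 were 0.05, -0.09 and -0.04 in TgCPEB4∆4 mice and 0.96, 0.53 and 1.12 in control mice, with no overlap. Those of Kcnn4 were -0.25, 0.25 and 0.27 in TgCPEB4∆4 mice and 1.16, 0.64 and 0.59 in control mice, also without overlap. Both genes were picked by their small p here, so the lack of overlap is no separate support. Without control mouse 2, Kcnh7 and Kcnq3 passed (adjusted p = 0.0172 and 0.0179), as did 9.18% of all genes upward and 1.25% downward.

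Other genes of the channel complexes came from a list of 23, of which 18 were measured and 17 tested. They gave 1 positive and 2 negative calls in TgCPEB4∆4 mice, and 2 positive and 5 negative in control mice. Among all 11974 genes 6.5% were positive and 20.5% negative in TgCPEB4∆4 mice, and 20.5% and 39.9% in control mice. Dpp10, a Kv4 auxiliary protein, averaged -0.88 in TgCPEB4∆4 mice (adjusted p = 0.03) and -1.56 in control mice (adjusted p = 0.00138). Dlg1, a scaffold of Kv1 and inward rectifier channels, averaged -0.65 in TgCPEB4∆4 mice (adjusted p = 0.0256) and -0.98 in control mice (adjusted p = 0.00221). Calm2 and Calm3, which encode the calmodulin bound by SK and Kv7 channels, averaged -0.12 and -0.31 in TgCPEB4∆4 mice and -0.58 and -0.69 in control mice, where both passed, as did the axonal adhesion protein Cntnap2 at -0.56. Lrrc26, a gamma subunit of the BK channel, was positive in both genotypes, at 0.44 in TgCPEB4∆4 mice (adjusted p = 0.0436) and 0.72 in control mice (adjusted p = 0.00325). Lrrc26 was above background on 12 of 18 arrays and on none of the INPUT arrays. Abcc8, the sulfonylurea receptor that joins Kcnj11, averaged -0.02 in TgCPEB4∆4 mice (adjusted p = 0.938) and 0.63 in control mice (adjusted p = 0.0209). None of the 17 passed a genotype comparison in INPUT, WASH, ELUTED or the tail ratio.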

How the data were processed

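Total RNA and 2 poly(U) fractions of 6 mice were measured on 18 single-colour Affymetrix arrays. Per the labels' protocols, amplification started from 5 ng of RNA and took 21 cycles before 8 µg of cDNA was labelled, which can compress or stretch differences. The deposited unit is log2 intensity of a probe set; RMA is the method that the submitters' processing notes name for the authors' values, which ran from 3.57 to 13.57. RMA aligns array distributions, so a change common to most mRNAs of a preparation is reduced or lost. The labels do not say whether all arrays entered 1 run. The series design text names the PrimeView array, whereas the probe set names and annotation are of another, perfect-match design, which was used.

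The table held 45141 probe sets. Of 45037 left without 104 controls, 28898 had 1 gene, 551 several and 15588 no entry; RefSeq symbols of GRCm38.p6 changed 0 of them. The filter left 27022. The test was limma's moderated linear model (limma 3.58.1, R 4.3.3), with two-sided Benjamini-Hochberg adjusted p under 0.05 over all probe sets kept. INPUT, WASH and ELUTED were each compared between genotypes, and within-mouse tail ratios of 6 mice shared 1 spread, although control mice varied more. Fractions were paired by the mouse number in the titles; their deviations from group means correlated at 0.716, 0.333 and 0.427 in TgCPEB4∆4 and -0.066, 0.162 and -0.025 in control mice. The procedure was tested on simulated data. No pair of arrays was identical (0 pairs). The number of arrays limits the precision, and arrays carry no read depth. 

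Genes were named by a rule: a list of brain subunits, the 3 highest and 3 lowest passing tail ratios per class and genotype with the same sign in 3 mice, the 3 smallest p of each genotype comparison, and genes whose probe sets disagreed in sign with 1 passing. Tail ratios of further tested subunits were given outside this rule, among them Kcna3, Kcna7, Kcng4, Kcnj16, Kcnq1, Kcns1 and Kcns3. The members, lists and rules were chosen with earlier results of these data known. Alternatives varied the filter, scaling, probe set summary, block and mice used.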

Additional observations from a re-analysis of the deposited data

Results flagged for a closer look

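The tail ratio of Kcna3, a Kv1 subunit, was negative in all 3 TgCPEB4∆4 mice (-0.05, -0.10 and -0.19) and positive in all 3 control mice (0.31, 0.31 and 0.41). The difference was -0.453 and did not pass in limma (adjusted p = 0.371).

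Kcnk6, a two-pore subunit near the filter limit, also had opposite signs in all mice, -0.64, -0.11 and -0.02 in TgCPEB4∆4 mice and 0.02, 0.07 and 0.07 in control mice. Its difference was -0.311 (adjusted p = 0.485), and TgCPEB4∆4 mouse 1 alone was far from 0. It was above background on 2 of 3 ELUTED and 3 of 3 WASH arrays of TgCPEB4∆4 mice, and on 1 of 3 ELUTED and 2 of 3 WASH arrays of control mice, so several of these ratios are only bounds.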

How the results depend on the processing

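Counts of called subunits were stable in INPUT and WASH, at 0 under every alternative run. In ELUTED, the 18-array fit with mouse as a random block gave 2 higher and 8 lower, and leaving out 1 mouse gave between 0 and 4 lower. For the genotype difference in tail ratio, leaving out 1 mouse gave between 0 and 2 lower. In TgCPEB4∆4 mice, leaving out 1 mouse gave between 0 and 8 positive and between 0 and 13 negative calls. The other settings gave 13 positive and 18 negative with tail ratios rescaled to the same SD, 10 and 14 with the 3 TgCPEB4∆4 mice fitted alone, 5 negative with a filter at the 60th percentile and 3 negative after a second quantile normalization. That normalization left 10 negative in control mice, where leaving out 1 mouse gave between 16 and 21 positive and between 14 and 15 negative. With the 3 control mice fitted alone, 15 subunits were positive and 13 negative.

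The replicate block, which pairs same-numbered mice of the 2 genotypes, left 0 calls in each genotype comparison. Without the within-mouse block (no replicate block), 6 subunits were positive and 5 negative in TgCPEB4∆4 mice, and 20 and 15 in control mice. The labels do not say whether same-numbered mice were paired across genotypes. Deviations of same-numbered mice correlated at 0.09, -0.042 and 0.258 in INPUT, -0.074, 0.173 and 0.155 in WASH, and 0.246, -0.199 and 0.149 in ELUTED. These cannot decide it, since mice of different number were not compared. Fractions of the same control mouse correlated as weakly, at -0.066, 0.162 and -0.025.

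These single tail ratios changed sign, none of them past the threshold in the alternative. After the second quantile normalization TgCPEB4∆4 ratios were 0.189 for Kcnip2, 0.15 for Kcnip4, 0.16 for Kcnj11, 0.078 for Kcnj4 and 0.254 for Kcnq3, and control ratios 0.054 for Kcna4, 0.108 for Kcnip2, 0.272 for Kcnj11, 0.036 for Kcnn2 and 0.15 for Kcnq5. With the mean of a gene's probe sets, TgCPEB4∆4 ratios were -0.112 for Kcnd3 and 0.097 for Kcnip2, and control ratios -0.141 for Kcnc4, 0.081 for Kcnj11, 0.049 for Kcnj9 and 0.193 for Kcnq5. With arrays centred on the median, Kcna4 was -0.001 in TgCPEB4∆4 mice and Kcnn1 -0.062 in control mice. Over the fits that left out 1 mouse, the TgCPEB4∆4 ratio lay between -0.095 and 0.051 for Kcnip2, -0.089 and 0.008 for Kcnj11, -0.035 and 0.281 for Kcnn1 and -0.067 and 0.007 for Kcnq3, and the control ratio between -0.113 and 0.654 for Kcnj4 and -0.018 and 0.196 for Kcnn1. The causes were not tested.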
